A study of Macaca mulatta with 6 samples.

Results

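TXNIP, the thioredoxin-interacting protein, was examined together with the arrestin-domain genes ARRDC1, ARRDC2, ARRDC3 and ARRDC4, the transcription factor genes MLXIP, MLXIPL and MLX, and the thioredoxin genes TXN and TXN2. These 10 genes were taken by symbol from a table of 24932 genes. All 10 were found there, as 20 transcripts, and 8 reached the mean of 1 FPKM needed for a test. FPKM is a fragment number scaled for the length of the transcript and the depth of the library. The set was chosen by the level of TXNIP, which was low in normal serum, where its log2 change was the 4th most negative of the 11818 genes tested. Its values are therefore given as a description, without a test. No threshold was set on the values of the other members, but the set was drawn up with results of these libraries known.

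TXNIP belongs to the alpha-arrestins, proteins with an arrestin fold that sit at membranes, bind ubiquitin ligases of the NEDD4 family through PPxY motifs and guide membrane proteins such as glucose transporters into the cell. It also binds thioredoxin, the small protein that keeps cysteines of other proteins reduced, and limits its activity. Transcription of TXNIP and ARRDC4 is controlled by MondoA, the product of MLXIP, and in liver and some other tissues by ChREBP, the product of MLXIPL. Both factors sense phosphorylated sugars and bind DNA together with MLX.

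The cells were RF/6A, a rhesus macaque line described as choroidal endothelial, grown to confluence on porous inserts and then kept in serum for 4 hours. Control cells received 50% heat-inactivated human serum, in which heating has destroyed complement activity, and treated cells received 50% normal human serum, in which complement can form the membrane attack complex. Polyadenylated RNA was sequenced from 3 libraries per treatment. The comparison asks how the transcripts differ between the treatments, and complement cannot be told apart here from other serum components that heat changes. The labels do not say whether replicates were separate cultures, so p-values reflect only how much these libraries varied, a variation that may be technical.

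Depth, read from the lowest values, lay between 14700000 and 17900000 fragments in replicates 2 and 3 of both treatments, where 100% of low values were whole fragments. It was only approximate in the replicate 1 libraries (15900000 in the control and 13300000 in normal serum), where 53.9% and 48.2% were whole, so these libraries stand apart. Of 11 endothelial markers found, 3 (PECAM1, FLT1 and ESAM) reached a mean of 1 FPKM, and CDH5, ROBO4, TIE1, TEK, ERG, KDR and CLDN5 were near 0 in both treatments. VWF was at 0.157 to 0.181 FPKM in the control and 0.998 to 1.13 FPKM in normal serum. The summed level of the 11 was 20.5 to 21.9 FPKM in the control and 30.4 to 32.1 FPKM in normal serum. All 7 mural and fibroblast markers found reached a mean of 1 FPKM. Their summed level, most of it COL1A1 and COL3A1, was 6572 to 7056 FPKM in the control and 3157 to 3313 FPKM in normal serum. THY1 went the other way, from 156 ± 8.11 to 209 ± 15.2 FPKM, while the other 6 were lower in every normal serum library. The part of these marker differences in the results below was not tested. In bulk RNA, fewer cells of a type and less RNA per cell cannot be told apart. The summed level of 4 blood cell markers was 6.61 to 8.49 FPKM in the control and 8.34 to 9.26 FPKM in normal serum, almost all of it CD68, with PTPRC and CD3E near 0 and HBB at 0. That of 6 pigment epithelium and epithelial markers was 1.39 to 1.71 and 1.37 to 1.96 FPKM, with none reaching a mean of 1 FPKM over all libraries. BEST1 was at 1.07 to 1.22 FPKM in the control and 0.597 to 0.983 FPKM in normal serum.

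TXNIP was a prominent transcript of the control cells and a middling one after normal serum. Its level was 266, 243 and 277 FPKM in control replicates 1, 2 and 3 and 18.5, 30.5 and 22.1 FPKM in normal serum replicates 1, 2 and 3. The groups did not overlap, and the lowest control library was far above the highest normal serum library, replicate 2. The means were 262 ± 17.4 and 23.7 ± 6.17 FPKM (SD, n = 3 per treatment), 11.0-fold lower in normal serum, with a log2 change of -3.44 (SE 0.163) on the scale of log2(FPKM + 1). Among the 11818 genes tested, TXNIP ranked between 353 and 394 by level in the control libraries and between 3472 and 4888 in the normal serum libraries.

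TXNIP was lower in normal serum in each pair of libraries with the same number. The log2 difference was -3.77 in the replicate 1 libraries, which stand apart, -2.95 in replicate 2 and -3.59 in replicate 3. TXNIP has a single transcript of 2796 bases in the table, on chromosome 1, so no summing of isoforms enters its value. It rested on about 10640 and 10607 fragments in control replicates 2 and 3 and on about 1200 and 1030 in normal serum replicates 2 and 3. Counting error was thus at most 3.12% in each of these 4 libraries, while the spread over the normal serum libraries was 26.0% of their mean and that over the control libraries 6.66%.

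**Figure D1:**
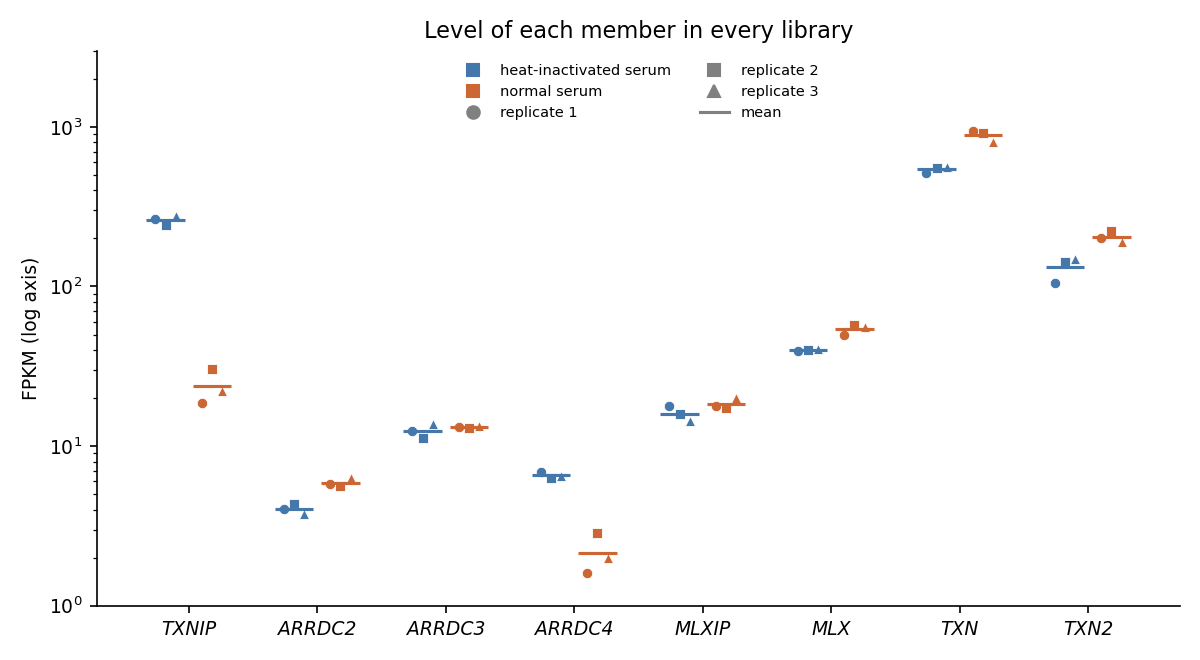
FPKM of the 8 members with a mean of at least 1 FPKM, on a log axis, with 1 point per library (shape gives the replicate number), blue for heat-inactivated serum and orange for normal serum, and a line at each mean of 3 libraries. TXNIP and ARRDC4 lie lower in every normal serum library, ARRDC2, MLX, TXN and TXN2 lie higher, and the ARRDC3 and MLXIP points overlap.

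Of the 7 other members tested, 5 were called by limma (adjusted p under 0.05 over all genes tested), 4 higher and 1 lower in normal serum. The share of all genes called was 54.0%, with 27.8% higher and 26.1% lower. Including TXNIP, 6 of the 8 members had libraries that did not overlap between treatments, against 62.6% of all genes tested. The median log2 change of the 8 members was 0.31 and that of all genes 0.01. Since the members were chosen with this comparison known, nothing is read from these shares. Rescaling the libraries to the same total FPKM moved the median of all genes to -0.12 and the share of calls that were higher from 51.6% to 34.7%, so changes of that size depend on the scaling.

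**Figure D2:**
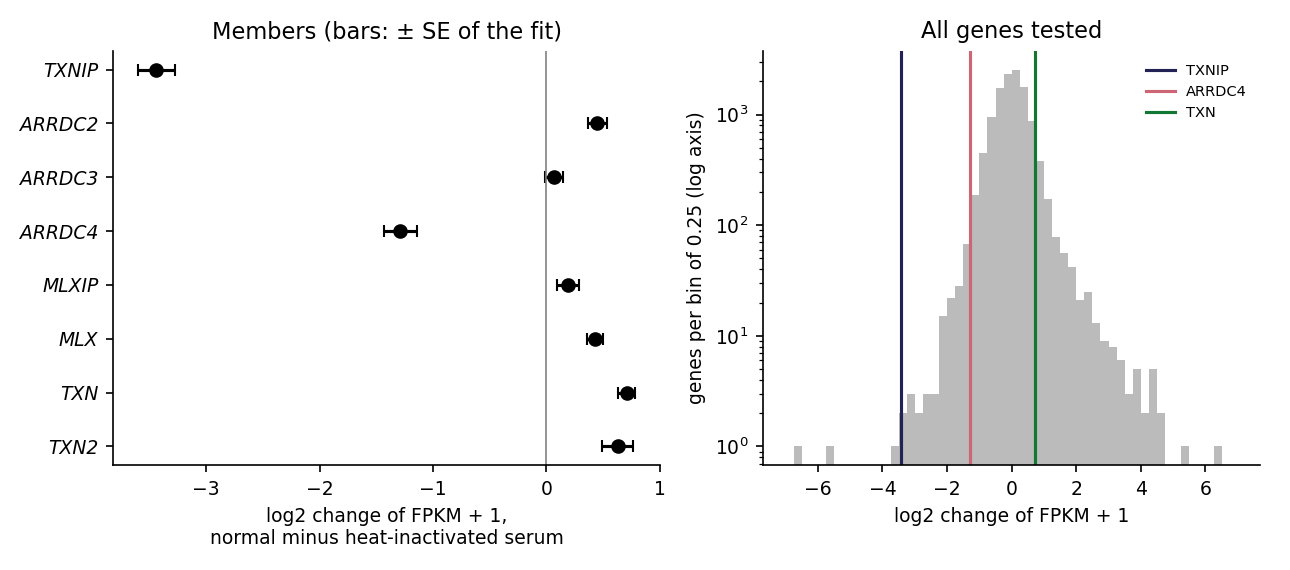
Left, log2 change of FPKM + 1 (normal minus heat-inactivated serum) of each member, with bars of ± SE from the fit. Right, the distribution of the same change over all 11818 genes tested (log axis of genes per bin of 0.25), with lines at TXNIP (-3.44), ARRDC4 (-1.29) and TXN (0.71).

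ARRDC4, the alpha-arrestin closest to TXNIP in its known control by MondoA, was lower in every normal serum library. It stood at 6.92, 6.33 and 6.49 FPKM in control replicates 1 to 3 and at 1.61, 2.85 and 1.98 FPKM in normal serum replicates 1 to 3. The groups did not overlap, and normal serum replicate 2 was again the highest and replicate 1 the lowest of the treated libraries, the same order as for TXNIP. The mean fell 3.07-fold, from 6.58 ± 0.305 to 2.14 ± 0.636 FPKM, a log2 change of -1.29 (SE 0.146, limma adjusted p = 0.000336). Between same-numbered libraries the log2 difference was -1.60 in replicate 1, -0.93 in replicate 2 and -1.33 in replicate 3. Its single transcript of 4032 bases, on chromosome 7, gave about 409 and 366 fragments in control replicates 2 and 3 and 165 and 136 in normal serum replicates 2 and 3.

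ARRDC4 made up 2.61%, 2.61% and 2.34% of the TXNIP level in control replicates 1 to 3. In normal serum replicates 1 to 3 it made up 8.68%, 9.32% and 8.97%. The ratio thus varied little within a treatment and was higher in normal serum, where both genes had a lower level and TXNIP the larger difference. TXNIP enters this ratio, so the ratio was not tested.

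ARRDC3, which is known for directing the beta-2 adrenergic receptor and integrin beta 4 to degradation, was not called. Its level was 12.5, 11.3 and 13.7 FPKM in the control and 13.1, 13.0 and 13.3 FPKM in normal serum, all of the latter within the control range. The log2 change was 0.07 with a 95% interval of -0.12 to 0.26 (limma adjusted p = 0.478), and its sign turned after rescaling to the same total FPKM (-0.0631). A change the size of that of ARRDC4 lies outside this interval. The single transcript, 4148 bases on chromosome 6, gave between 752 and 939 fragments in replicates 2 and 3, more than ARRDC4 gave in any of these libraries.

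ARRDC2 rose, from 4.01, 4.31 and 3.76 FPKM in the control to 5.75, 5.64 and 6.27 FPKM in normal serum. No control library reached the normal serum range. The mean rose 1.46-fold, from 4.03 ± 0.277 to 5.89 ± 0.337 FPKM, with a log2 change of 0.45 (SE 0.0849, limma adjusted p = 0.00327). The call ended after rescaling to the same total FPKM (log2 0.33, adjusted p = 0.0536) and held when only transcripts of at least 300 bases set the total (log2 0.31, adjusted p = 0.0243), an alternative chosen after seeing the data. The table holds 2 ARRDC2 transcripts of nearly the same length on chromosome 19. The one of 2490 bases went from 3.16 ± 0.119 to 5.21 ± 0.0569 FPKM (limma adjusted p = 0.000743), while the one of 2496 bases had a mean below 1 FPKM and stood at 0.865 ± 0.350 and 0.682 ± 0.293 FPKM.

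ARRDC1, an alpha-arrestin that drives budding of small vesicles from the plasma membrane, was listed at 0 in all 6 libraries for both of its transcripts, which the table places on an unplaced scaffold. Other genes that most cells use were also listed at 0, such as TXNRD1 and PRDX5, so the listing does not establish that ARRDC1 was silent. ARRDC5, an alpha-arrestin outside the 10 genes, stood at 0.281 ± 0.167 and 0.489 ± 0.261 FPKM, on 9 fragments or fewer in each of the replicate 2 and 3 libraries, and was not tested.

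The order of the alpha-arrestins changed between treatments. In the control it ran from TXNIP over ARRDC3, ARRDC4 and ARRDC2 to ARRDC5, and in normal serum from TXNIP over ARRDC3, ARRDC2 and ARRDC4 to ARRDC5. Neighbours in both orders had library values that did not overlap. TXNIP made up 91.8%, 91.6% and 92.0% of the summed alpha-arrestin FPKM in control replicates 1 to 3. In normal serum replicates 1 to 3 it made up 47.1%, 57.8% and 50.2%. The sum went from 285 ± 18.3 to 45.4 ± 6.86 FPKM, and the sum without TXNIP was 23.4 ± 0.913 and 21.7 ± 0.795 FPKM.

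**Figure D3:**
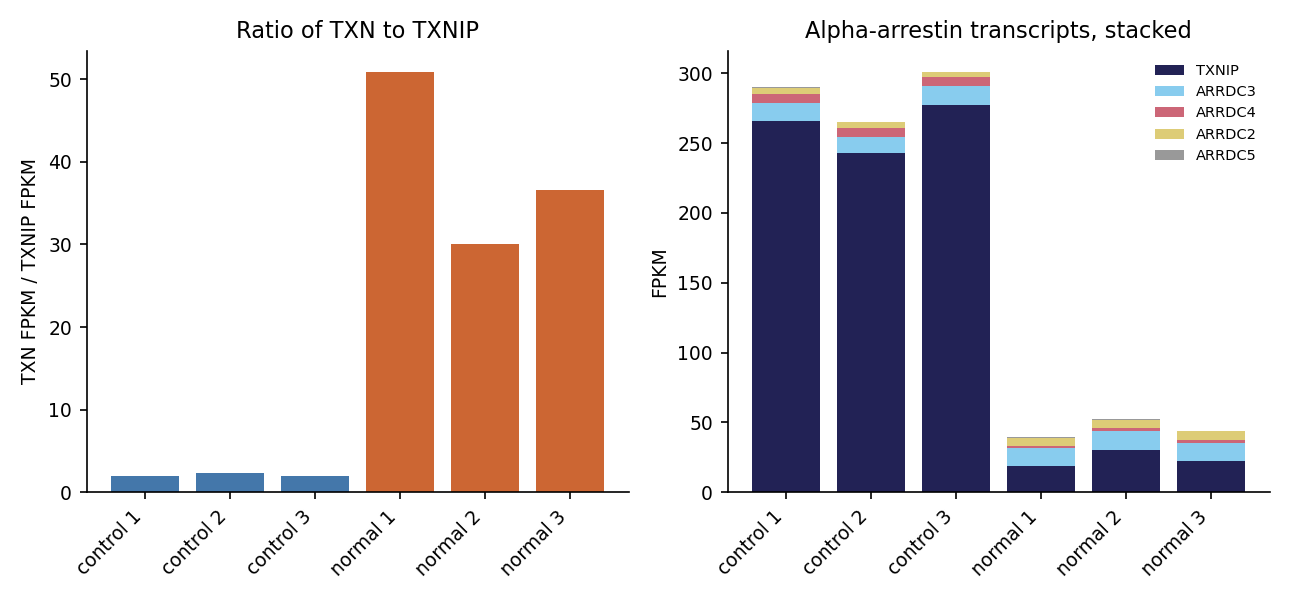
Left, the ratio of TXN to TXNIP FPKM in each library, 1.94 to 2.27 in the control and 30.1 to 50.9 in normal serum. Right, FPKM of the alpha-arrestins stacked per library, where the TXNIP part shrinks in normal serum and the sum of the others stays between 20.8 and 24.0 FPKM.

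Neither MLX nor MLXIP was lower in normal serum. MLX, the common partner of MondoA and ChREBP, rose from 39.5, 40.2 and 40.5 FPKM in the control to 50.0, 57.4 and 56.1 FPKM in normal serum. The groups did not overlap, and normal serum replicate 1 was the lowest of the treated libraries. The mean rose 1.36-fold, from 40.1 ± 0.503 to 54.5 ± 3.92 FPKM (log2 change 0.43, SE 0.0677, limma adjusted p = 0.00150). The log2 change was smaller but still called with equal total FPKM in every library (0.29, adjusted p = 0.0401), when only transcripts of at least 300 bases set the total (0.26, adjusted p = 0.0179) and with quantile normalization (0.28). MLX has a transcript of 2552 bases and one of 648 bases on chromosome 16. The longer one rose from 23.7 ± 2.66 to 31.4 ± 2.24 FPKM (limma adjusted p = 0.00955), while the shorter one, at 16.4 ± 3.16 and 23.1 ± 5.96 FPKM, was not past the threshold on its own (limma adjusted p = 0.107). The longer model took 67.5% of the MLX level in control replicate 1 and 67.6% in normal serum replicate 1, and between 52.5% and 56.7% in the other 4 libraries, so the split moved with the replicate 1 libraries.

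MLXIP, which encodes MondoA, was not called. Its level was 17.8, 15.8 and 14.4 FPKM in the control and 17.9, 17.3 and 19.9 FPKM in normal serum. The groups overlapped through control replicate 1, the highest of the control libraries. The log2 change was 0.19 with a 95% interval of -0.03 to 0.41 (limma adjusted p = 0.123). Without control replicate 1 it was 0.27 and was called (limma adjusted p = 0.0456), and between same-numbered libraries it was 0.01, 0.12 and 0.45. Nearly all of the level came from a transcript of 4766 bases on chromosome 11, and a model of 652 bases, on at most 12 fragments in replicates 2 and 3, stood at 0.749 ± 0.275 and 1.498 ± 0.253 FPKM. That model met the filter only through normal serum, where it is high, so no test of it is given.

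MLXIPL, which encodes ChREBP, was listed at 0.0912 FPKM in control replicate 1 and at 0 in the other libraries, in 2 transcript models of 618 and 897 bases on chromosome 3. Of the MondoA and ChREBP genes as listed, MLXIP was the one with transcripts above 1 FPKM. The values of these 2 short MLXIPL models do not establish that the gene was silent. MLX stood at 2.22, 2.55 and 2.82 times the MLXIP level in the control and at 2.79, 3.32 and 2.81 times that level in normal serum.

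The thioredoxin genes rose while TXNIP stood lower. TXN, the cytosolic thioredoxin, was measured at 514, 551 and 559 FPKM in the control and at 941, 920 and 808 FPKM in normal serum. Every normal serum library was above every control library. The mean rose 1.64-fold, from 542 ± 24.1 to 890 ± 71.3 FPKM (log2 change 0.71, SE 0.0752, limma adjusted p = 0.000249). With the authors' scaling replaced by the same total FPKM in each library the log2 change was 0.57, and with quantile normalization 0.46, both still called.

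The symbol TXN covers 5 transcripts in the table. One of 542 bases on chromosome 15 made up between 98.5% and 98.9% of the level in every library, and on its own rose from 535 ± 23.8 to 877 ± 69.7 FPKM. A model of 452 bases on the same chromosome rose from 2.36 ± 1.40 to 7.003 ± 2.08 FPKM (limma adjusted p = 0.0176). A copy of 318 bases that the table places on chromosome 1 stood at 4.15 ± 1.40 and 4.36 ± 0.822 FPKM and was not called (log2 change 0.08, 95% interval -0.39 to 0.55, limma adjusted p = 0.754), on 12 fragments or fewer in each of the replicate 2 and 3 libraries. Models of 505 bases on chromosome 15 and 315 bases on chromosome 5 stayed below a mean of 1 FPKM. Near-identical copies can share fragments, so the small values are uncertain.

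TXN2, the mitochondrial thioredoxin, rose from 105, 143 and 148 FPKM to 200, 222 and 189 FPKM. The groups did not overlap, and control replicate 1 was the lowest library. The mean rose 1.54-fold, from 132 ± 23.7 to 204 ± 16.6 FPKM (log2 change 0.63, SE 0.135, limma adjusted p = 0.00584). With quantile normalization the log2 change was 0.40 and still called (adjusted p = 0.0285). Between same-numbered libraries it was 0.92, 0.63 and 0.35 in replicates 1, 2 and 3. Its only model, on chromosome 10, has 237 bases, and between 185 and 190 bases had to be subtracted from a transcript's length to make low values whole in replicates 2 and 3. The TXN2 level thus rests on a short effective length and is not comparable with the levels of the other members, and the gene drops out when transcripts under 300 bases are left out. In replicate 1 the match was only approximate and subtracted 145 bases in the control and 100 in normal serum. Whether this unlike length enters the 0.92 of replicate 1 was not tested. Within replicates 2 and 3 alone the TXN2 log2 change was 0.49.

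With TXN higher and TXNIP lower, the ratio of TXN to TXNIP transcripts differed widely between treatments. It was 1.94, 2.27 and 2.02 in control replicates 1 to 3 and 50.9, 30.1 and 36.6 in normal serum replicates 1 to 3. The mean ratio was 2.08 ± 0.174 in the control and 39.2 ± 10.6 in normal serum, 18.9-fold higher. TXNIP enters the ratio, so it was not tested. These are transcript levels, and the proteins were not measured.

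**Figure D4:**
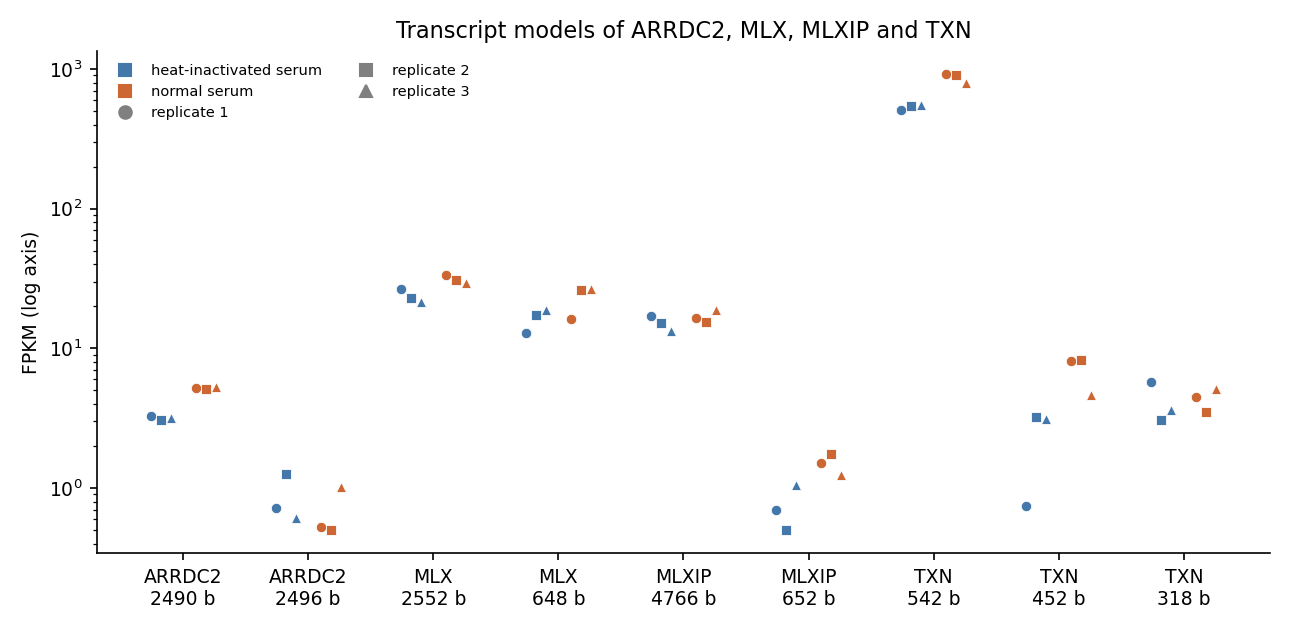
FPKM on a log axis of single transcript models of ARRDC2, MLX, MLXIP and TXN (lengths in bases, b), with 1 point per library, blue for heat-inactivated and orange for normal serum. The 542-base model carries nearly all of TXN, and the 2 MLX models split differently in replicate 1 (circles) of both treatments.

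Around these members, 119 genes of 11 lists were examined, covering thioredoxin and TXNIP partners, ligases, cargo, targets and regulators. Of these, 117 were found and 98 tested, of which 37 were called higher and 27 lower (limma), or 65.3% against 54.0% of all genes. Their median log2 change was 0.11. After rescaling to the same total FPKM the numbers were 22 higher and 32 lower, so the balance of directions depends on the scaling. Beside the counts of each list stand the shares of all genes tested, 27.8% higher and 26.1% lower, or 16.5% and 31.0% after rescaling. The lists were not tested as groups. Of the 98 genes, 5 had a mean below 1 FPKM in 1 treatment and met the filter only through the other, and 4 of these were called, MAP3K5, ITGB4 and SLC2A12 lower and HECW2 higher. These 4 stay in the counts, but nothing is read from their calls.

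Of 18 tested genes of the thioredoxin and glutaredoxin systems, 11 were called higher and 2 lower (72.2% called), with a median log2 change of 0.29. After rescaling, 8 were higher and 3 lower. The peroxiredoxin genes PRDX1 and PRDX6, whose products remove peroxides, rose from 493 ± 12.1 to 872 ± 50.7 FPKM (log2 0.82, adjusted p = 5.88e-05 by limma) and from 504 ± 38.7 to 961 ± 31.2 FPKM (log2 0.93). GLRX2, a mitochondrial glutaredoxin, rose from 15.2 ± 0.539 to 32.6 ± 1.68 FPKM. NXN, which encodes nucleoredoxin, fell from 115 ± 1.56 to 65.6 ± 1.14 FPKM. TXNRD1, the cytosolic thioredoxin reductase, was listed at 0 in all libraries.

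Among 6 tested genes for proteins described as binding thioredoxin or TXNIP, 3 were higher and 1 lower (66.7% called), with a median of 0.15. MAP3K5, which encodes the kinase ASK1 that thioredoxin holds inactive, fell from 2.25 ± 0.153 to 0.877 ± 0.0738 FPKM (log2 -0.79). It passed the filter only through the control libraries, where it is high, so no test of it is given. MAP3K5 is the 1 lower gene in the count of this list. The inflammasome gene NLRP3 was listed at 0 in all libraries. The higher genes were APEX1 (157 ± 5.13 to 176 ± 2.29 FPKM), COPS5 (59.4 ± 1.59 to 67.3 ± 2.67 FPKM) and KPNA2 (93.9 ± 8.30 to 124 ± 9.34 FPKM). None of these 3 calls held after rescaling to the same total FPKM, where limma adjusted p was 0.885, 0.794 and 0.0785. The APEX1 call also ended when any 1 library was left out (adjusted p from 0.0522 to 0.104) and the COPS5 call when any but normal serum replicate 3 was (adjusted p up to 0.122), and both had log2 changes just below 0 after quantile normalization (-0.0678 and -0.00228).

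Of 8 tested ubiquitin ligases of the NEDD4 family, the enzymes that alpha-arrestins recruit, 3 were higher and 0 lower (37.5% called), with a median of -0.03, or 2 higher and 1 lower after rescaling. SMURF2 rose from 51.9 ± 0.764 to 123 ± 4.02 FPKM (log2 1.23, limma adjusted p = 5.33e-06) and HECW2 from 0.269 ± 0.0669 to 2.29 ± 0.114 FPKM. HECW2 was between 0.203 and 0.337 FPKM in the control and passed the filter only through normal serum, where it is high. No test of it is therefore given, though it is among the 3 higher genes counted. SMURF1 rose from 6.15 ± 0.287 to 8.53 ± 1.09 FPKM, a call that ended after rescaling (adjusted p = 0.0853). ITCH, the ligase known for ubiquitinating TXNIP, stood at 15.9 ± 0.277 and 14.0 ± 1.27 FPKM (log2 -0.18, adjusted p = 0.0889 by limma). It was called lower without normal serum replicate 3 (log2 -0.25, adjusted p = 0.0250) and after rescaling (log2 -0.31, adjusted p = 0.0414). Of the 6 budding partners of ARRDC1, CHMP4B and VPS4A were higher by 0.23 each on the log2 scale and 4 were not called (33.3% called), with a median of 0.11. The list had 0 higher and 1 lower after rescaling, and 0 higher and 2 lower with quantile normalization. With quantile normalization 6082 of the 11818 genes tested were called, 47.2% of these calls higher. The CHMP4B and VPS4A calls ended after rescaling (adjusted p = 0.409 and 0.458). That of VPS4A also ended in fits lacking control replicate 1, control replicate 3 or normal serum replicate 2 (with adjusted p of 0.0635, 0.0557 and 0.0818).

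Membrane proteins described as cargo of alpha-arrestins went both ways, with 2 of 7 tested higher and 4 lower (85.7% called) and a median of -0.25, or 1 and 4 after rescaling. SLC2A1, the glucose transporter GLUT1 that TXNIP removes from the surface, rose from 75.1 ± 3.87 to 126 ± 3.58 FPKM (log2 0.74, limma adjusted p = 7.92e-05). EGFR rose from 7.46 ± 0.0594 to 10.3 ± 1.06 FPKM, a call lost after rescaling (adjusted p = 0.0721). The insulin receptor gene INSR fell from 9.07 ± 0.330 to 4.14 ± 0.542 FPKM, and the iron transporter gene SLC11A2 from 62.2 ± 5.37 to 27.6 ± 0.954 FPKM. Of the classical arrestins, 1 of 2 tested was lower, with a median of -0.42. Both were called in 9 of 20 alternatives, among them the fit without control replicate 1 and both rescalings. ARRB2 fell from 14.7 ± 0.787 to 10.9 ± 1.00 FPKM (limma adjusted p = 0.00572), and ARRB1, at 2.24 ± 0.731 and 1.33 ± 0.0986 FPKM, was not past the threshold (adjusted p = 0.0637).

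Genes described as targets of MondoA or ChREBP, other than TXNIP and ARRDC4, did not share one direction. Of 11 tested, 5 were higher and 5 lower (90.9% called), with a median log2 change of 0.26. HK2, a hexokinase that forms glucose 6-phosphate, rose from 8.53 ± 0.637 to 36.3 ± 1.90 FPKM (log2 1.97, limma adjusted p = 3.36e-06). PFKFB3, an enzyme that speeds glycolysis, rose from 8.30 ± 1.26 to 20.4 ± 1.97 FPKM, and BHLHE40, a transcriptional repressor, from 121 ± 4.64 to 236 ± 19.1 FPKM. TKFC, a dihydroxyacetone kinase that the table lists under its older name DAK, fell from 31.3 ± 0.970 to 15.3 ± 1.36 FPKM (log2 -0.99, limma adjusted p = 6.08e-05). After rescaling, 3 genes of the list were higher and 5 lower.

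Of 12 tested genes for glucose uptake and sugar phosphates, 5 were higher and 3 lower (66.7% called), with a median of 0.16, or 4 and 3 after rescaling. The glucose transporter gene SLC2A3 rose from 49.8 ± 5.63 to 121 ± 3.67 FPKM (log2 1.27, limma adjusted p = 3.75e-05) while SLC2A10 fell from 22.2 ± 2.99 to 8.81 ± 0.906 FPKM. HK1 rose from 41.2 ± 2.06 to 59.7 ± 2.15 FPKM.

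Transcription factor genes of the MAX network and the related USF1 and USF2 gave 3 higher and 4 lower of 11 (63.6% called), with a median of -0.05, or 2 and 4 after rescaling. MYC rose from 119 ± 3.79 to 191 ± 8.19 FPKM and MXD1 from 3.39 ± 0.0782 to 5.04 ± 0.292 FPKM. MXI1 fell from 21.2 ± 1.31 to 10.6 ± 1.34 FPKM and MXD4 from 29.6 ± 0.648 to 24.7 ± 0.988 FPKM. Of 17 tested genes for other described regulators of TXNIP, 3 were higher and 7 lower (58.8% called), with a median of -0.17, or 2 and 8 after rescaling. PRKAA1, a catalytic subunit of the energy sensor AMPK, fell from 6.38 ± 1.02 to 3.99 ± 0.25 FPKM. HSF1, the heat shock factor, rose from 46.3 ± 1.86 to 61.2 ± 1.46 FPKM, and the AMPK subunit gene PRKAB1 from 12.3 ± 0.996 to 17.4 ± 0.968 FPKM, a call that just ended after rescaling (adjusted p = 0.0503).

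**Figure D5:**
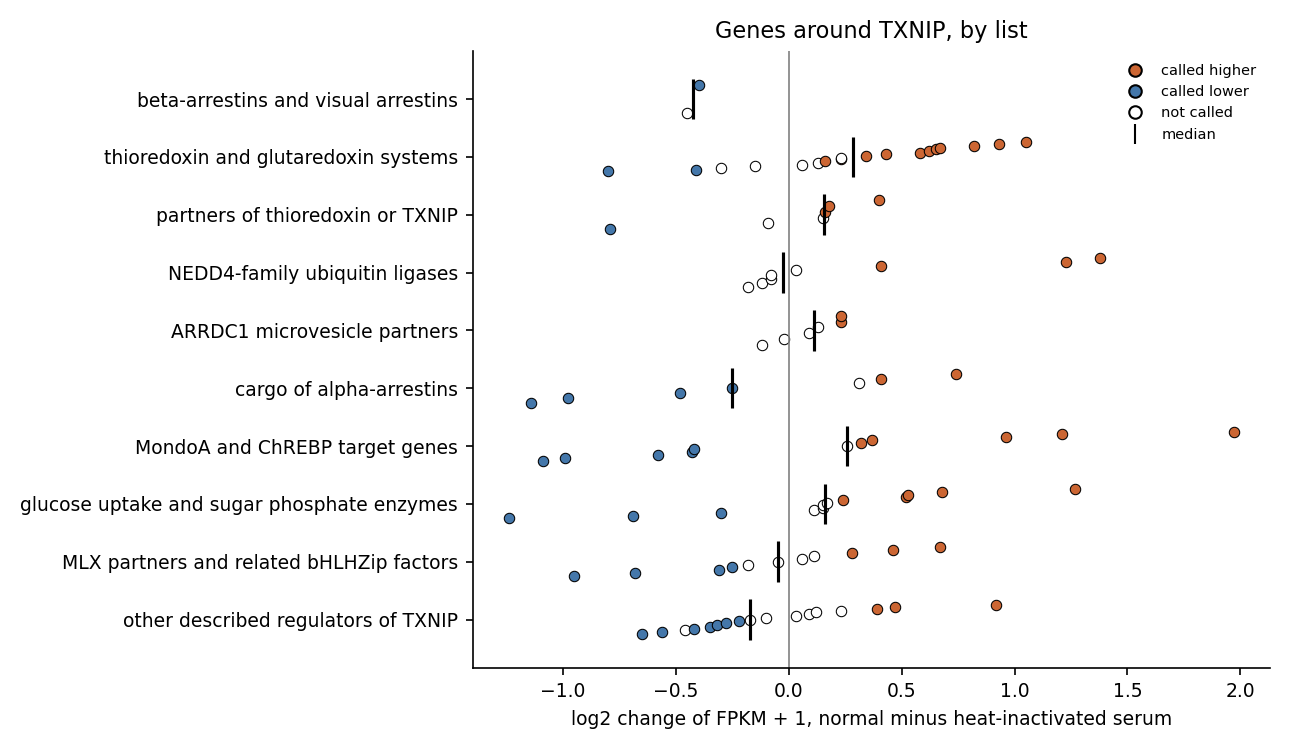
Log2 change of FPKM + 1 (normal minus heat-inactivated serum) of each tested gene around TXNIP, by list, with orange for called higher, blue for called lower, white for not called, and a bar at each list's median. The MondoA and ChREBP targets spread from -1.09 to 1.97, and the thioredoxin and glutaredoxin genes from -0.80 to 1.05.

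The genes whose pattern over the 6 libraries was nearest to that of TXNIP were sought by the root mean square difference of log2(FPKM + 1), each gene centred on its own mean. CXCL1, a neutrophil chemokine, was nearest at 0.338, with 353 to 395 FPKM in the control and 47.9 to 65.0 FPKM in normal serum, where replicate 2 was also the highest library. CCL11, an eosinophil chemokine (0.452), PLSCR4, a phospholipid scramblase (0.465), DCN, which encodes decorin (0.557), and ADAMTS9, a matrix protease (0.575), followed. The log2 change was -3.70 for CCL11 and between -2.78 and -2.33 for the others. CCL11 stood at 15.1 to 19.6 FPKM in the control and 0 to 0.867 FPKM in normal serum. It thus met the filter only through the control libraries, and its log2 change depends on the pseudocount. Nearest to ARRDC4 were IGKC (0.113), PAMR1 (0.117) and the guanylate-binding protein gene GBP1 (0.122), with log2 changes of -1.16, -1.29 and -1.26. The symbol IGKC stands for an immunoglobulin gene, listed at 71.8 to 78.1 FPKM in the control, where the blood cell markers PTPRC and CD3E were near 0. Whether that symbol is right was not tested. Nearest to ARRDC3 were RQCD1, GGPS1 and CYP20A1, with differences of 0.0213 to 0.0338, and each, like ARRDC3, was lowest in control replicate 2 and highest in control replicate 3. The measure is dominated by the treatment difference where that is large, and it is a description over 6 libraries.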

How the data were processed

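Polyadenylated RNA of 3 libraries per treatment was sequenced. The tools named, per the submitters' processing notes, are Cuffdiff 2.1.1, Cufflinks 2.1.1 and TopHat2 2.0.7. The genome build was not given in the sources used here. FPKM per transcript and library stand in the deposited table as the authors scaled them, with the authors' FPKM per treatment and, per the file headers, the authors' comparison of each transcript. Its deposited log2 changes, p-values and q-values were not used for calls. FPKM of 44605 transcripts were summed by symbol to 24932 genes, and gene names were found for 256 of 7008 identifiers that came without a symbol. TXNIP, ARRDC3, ARRDC4 and TXN2 have 1 transcript each.

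The test was limma 3.58.1 in R 4.3.3 on log2(FPKM + 1) of the 11818 genes whose mean reached 1 FPKM (trended empirical Bayes variance, two-sided, Benjamini-Hochberg over all genes tested, called at an adjusted p under 0.05), and the script was checked on simulated data. This scale shrinks the changes of low genes, so folds are given as ratios of mean FPKM. SD values are over 3 libraries. Low values of single-transcript genes were matched to whole fragments within 0.1, which gave the depth, and fragment numbers of members are derived from it. Counting errors cover counting only. Strand was not given in the sources used here, so overlapping genes are not told apart. The members and lists were chosen with earlier results of these data known. Named genes were all members, at most 4 called genes per list, taken by smallest adjusted p (or the 2 highest genes where none was called), ARRDC5, TXNRD1, SLC2A1, ITCH and MAP3K5, and the 5 genes nearest in pattern to TXNIP and 3 each to ARRDC4 and ARRDC3. Some genes that this rule takes are counted in their lists but not reported here by name. PRDX5, NLRP3, ARRB1, ITGB4 and SLC2A12 were named after their values were seen. Older symbols for TKFC and PKM were added after the table was seen, and PKM, found as PKM2, was below 1 FPKM. That listing does not establish that PKM was hardly expressed. Alternatives varied the pseudocount, filter, scaling, variance model, transcript summing, replicate terms and libraries.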

Additional observations from a re-analysis of the deposited data

How the results depend on the processing

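The numbers of genes called among all genes (6381, from 5166 to 7063), among the other members (5) and among the pathway lists (64, from 52 to 67) stayed within 1.5 times their value under each alternative, with 1 exception. With a mean of at least 5 FPKM 3 other members were called, because ARRDC2 and ARRDC4 no longer met the filter. Leaving out 1 library gave 5455 to 5872 genes, 5 to 6 other members and 54 to 62 list genes. TXNIP stayed between -3.77 and -3.27 and ARRDC4 between -1.61 and -1.13 on the log2 scale in every alternative that gave a value. These alternatives include the replicate 1 pair by itself (-3.77 and -1.6) but not the other same-numbered pairs. The replicate 2 pair had smaller differences, outside these ranges (-2.95 for TXNIP and -0.93 for ARRDC4). The replicate 3 pair lay within them (-3.59 and -1.33). ARRDC3 turned to -0.0631 after rescaling to the same total FPKM and to -0.0889 when transcripts of at least 300 bases set that total, APEX1 to -0.0105 in the latter and to -0.0678 with quantile normalization, and COPS5 to -0.00228 with quantile normalization; the cause was not tested.

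With replicate number as a block, 6775 genes, 5 other members and 64 list genes were called. Deviations from the treatment means correlated at 0.193, 0.033 and 0.006 in same-numbered libraries 1, 2 and 3, and between -0.134 and 0.106 in libraries with different numbers. These deviations cancel within each treatment, and the replicate 1 libraries stand apart. The correlations therefore cannot settle whether the numbers pair the samples. MLXIPL and ARRDC5 lay below the mean of 1 FPKM set for a test. The listing of ARRDC1 at 0 in all libraries leaves its level unknown, and the short TXN and MLXIP models rest on few fragments.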
